A study of Mus musculus with 6 samples.

Results

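The Zbtb genes encode transcription factors that pair a BTB domain near the amino terminus with zinc fingers near the carboxyl terminus. They were chosen by name, as all genes whose symbol starts with Zbtb and which the platform annotation gives as the only symbol of a probe set. This gave 40 genes with 87 probe sets, among 45037 probe sets other than controls. No measured value of a gene decided its membership, but the family was picked with XY against XX values of these arrays known. Counts and medians over the family are therefore descriptions with no test. The symbol rule also takes in Zbtb11os1, a long noncoding RNA gene opposite Zbtb11, which is no transcription factor. A further 5 probe sets list a Zbtb name together with another symbol and were not used.

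The tested oocytes came from XY females of B6.Y(TIR), and those they were set against from their XX littermates. Females of both groups were 25 to 29 days old and received 5 IU of equine chorionic gonadotropin 45 to 47 hours before the oocytes were taken. Each array held RNA of 10 fully grown oocytes at the germinal vesicle (GV) stage, freed of cumulus cells, from 1 of 3 females per group. The labels add no other allele or transgene, and the Y chromosome and the number of X chromosomes differ together between the groups, so that their parts cannot be told apart here.

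BTB domains form dimers and bind corepressor complexes such as those of Ncor1 and Bcor, and some bind the ubiquitin ligase scaffold Cul3, while the zinc fingers read DNA. Many members act as repressors, and several are best known from blood cell development. A subgroup of Zbtb33 (Kaiso), Zbtb4 and Zbtb38 binds methylated DNA. The growing oocyte lays down DNA methylation and stores mRNA, and transcription is largely silent by the time it is fully grown. The arrays would thus read mostly stored transcripts, which was not tested here.

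Of the 40 genes, 35 had a probe set that reached the median of its array in 3 or more of the 6 arrays. These were tested, and the brightest such probe set stood for its gene. Of the 35, 31 were at or above the median on all 6 arrays, and 0 reached it in 1 group alone. Zbtb12 reached it on all XX arrays but, of the XY arrays, only on XY 1, so its XX arrays by themselves met the rule. The level given throughout is log2(quantile-normalized intensity + 9), and a change is XY minus XX on that scale, which understates the change of dim genes. With 3 arrays per group, limma's adjusted p over all 12442 genes tested was the test, at a threshold of 0.05.

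Among the 35 genes, 7 fell and 0 rose in XY oocytes. These were Zbtb39, Zbtb33, Zbtb46, Zbtb6, Zbtb34, Zbtb37 and Zbtb7a, with changes of -1.51 to -0.68 on the log2 scale. Over all genes tested, 5.34% fell and 7.86% rose. In pooled oocytes, fewer cells of a type and less RNA per cell cannot be told apart. At an unadjusted limma p under 0.05, 16 Zbtb genes were lower and 3 higher, where 13.3% of all genes were lower and 18.9% higher. In 17 genes all XY arrays lay below all XX arrays and in 5 all lay above, where over all genes this held for 16.2% and 22.6%. The median change was -0.32 in the 35 genes and 0.07 in all genes, and -0.30 in the 34 autosomal members. A change below 0 was found in 25 of the 35 (71.4%), against 44.4% of all genes. With trimmed mean scaling of the arrays, 1 rose (Zbtb38) and 5 fell, while 11.4% of all genes rose, 4.71% fell and their median moved to 0.18.

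**Figure D1:**
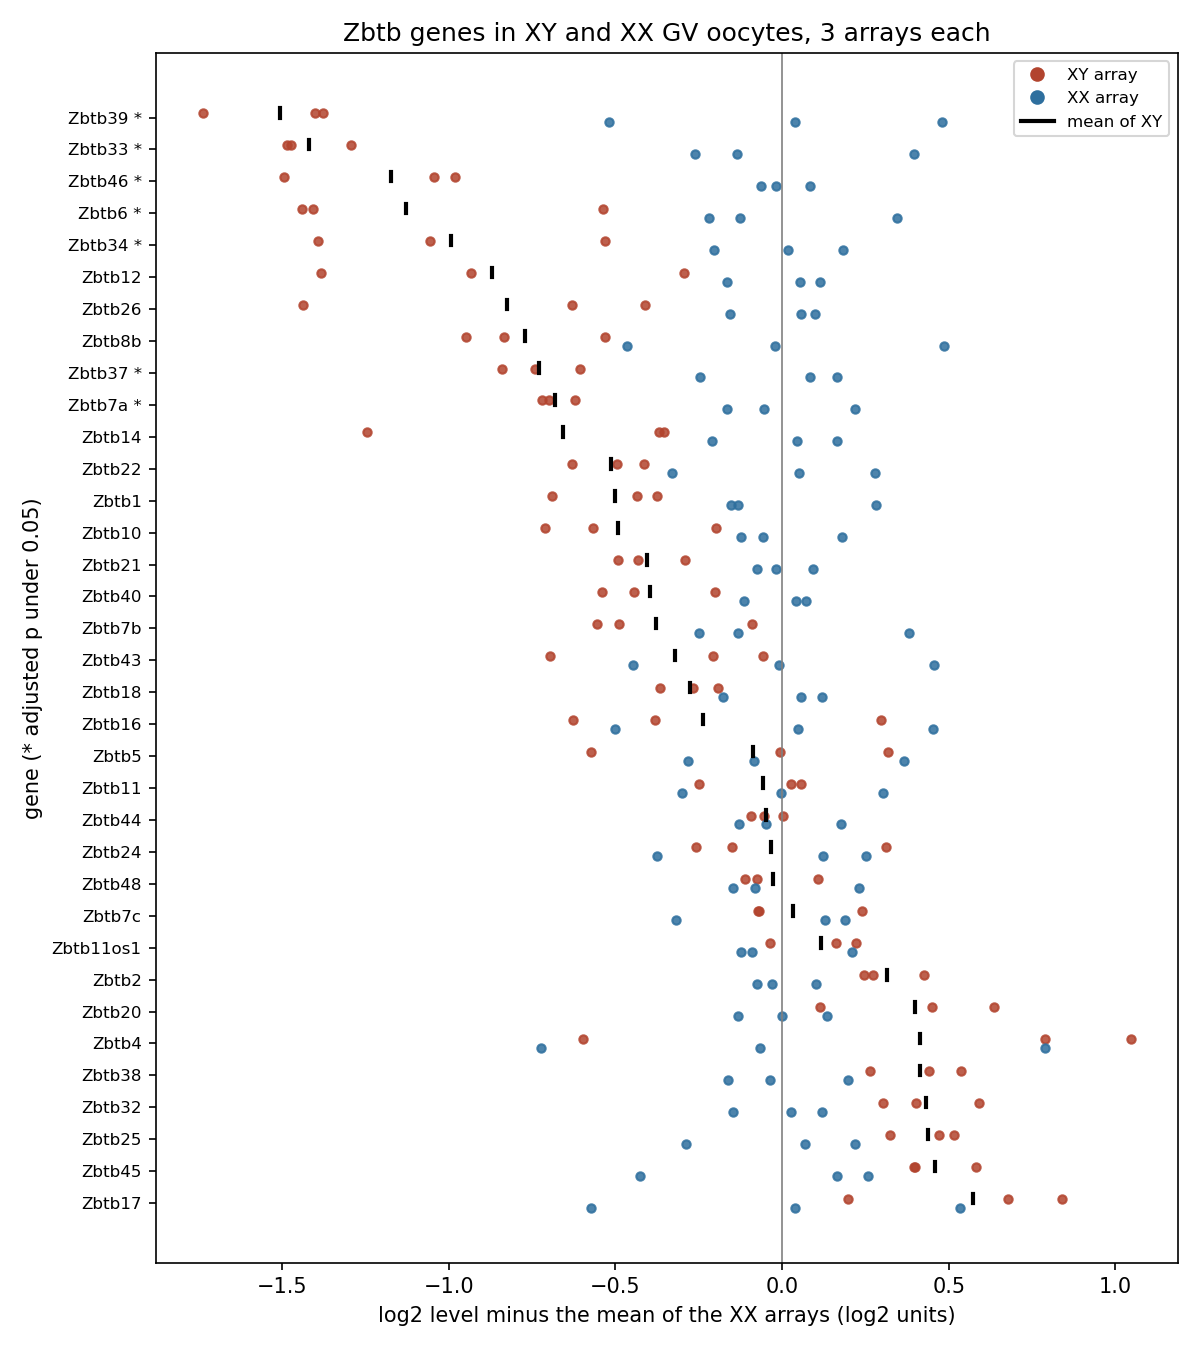
Each row is a Zbtb gene, and the x axis gives its log2 level on each array minus the mean of the XX arrays, with XY arrays in red, XX arrays in blue and a black bar at the XY mean. The 7 genes with an asterisk passed the adjusted p, and their XY means lie between -1.51 and -0.68.

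Of these genes, Zbtb33, Zbtb46 and Zbtb39 kept their call in the most alternatives, so windows around their annotated starts are shown, from RefSeq on GRCm38.p6. Each runs from 250 bases before to 50 after the outermost annotated start, 5′ to 3′ on the gene's own strand, and capitals mark GC boxes (GGGCGG or its reverse complement). The windows lie at chr10:127739280-127739579 (plus strand), chrX:38189543-38189842 (plus strand) and chr2:181424339-181424638 (minus strand).
Zbtb39: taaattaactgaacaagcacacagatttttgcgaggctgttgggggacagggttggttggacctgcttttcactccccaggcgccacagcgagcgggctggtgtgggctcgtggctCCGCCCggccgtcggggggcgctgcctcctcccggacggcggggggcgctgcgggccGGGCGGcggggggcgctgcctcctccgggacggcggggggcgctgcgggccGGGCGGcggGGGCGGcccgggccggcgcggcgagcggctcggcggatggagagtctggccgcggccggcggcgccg
Zbtb33: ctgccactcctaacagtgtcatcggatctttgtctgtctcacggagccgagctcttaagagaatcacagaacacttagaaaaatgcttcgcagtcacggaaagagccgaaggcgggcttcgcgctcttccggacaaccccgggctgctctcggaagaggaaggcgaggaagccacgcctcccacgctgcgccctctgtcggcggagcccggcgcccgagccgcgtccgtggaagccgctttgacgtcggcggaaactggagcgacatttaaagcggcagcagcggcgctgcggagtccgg
Zbtb46: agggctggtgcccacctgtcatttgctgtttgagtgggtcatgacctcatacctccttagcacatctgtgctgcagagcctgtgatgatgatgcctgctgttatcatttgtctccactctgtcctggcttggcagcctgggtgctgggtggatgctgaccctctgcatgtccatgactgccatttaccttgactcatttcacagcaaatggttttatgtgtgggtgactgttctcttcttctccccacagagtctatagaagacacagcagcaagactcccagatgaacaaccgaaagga

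The Zbtb39 window holds 4 GC boxes, with 77% G and C. The Zbtb33 window has none but is rich in CpG (observed over expected 1.15), and the Zbtb46 window is poor in CpG (0.052). The bases just before the annotated start of Zbtb46 read like the end of an intron, so its window may not hold the promoter. Windows were found for 30 of the 35 genes tested, that of Zbtb46 included. On either strand, 21 of the 30 (70%) hold a GC box, and so do 5 of the 7 genes that fell. A GC box is held by 61.4% of 10047 windows of all genes tested and 35.9% of 27018 windows of all genes. The median CpG ratio was 0.86 over the 7 genes that fell and 0.808 over the 30, against 0.75 over the genes tested. None of the motifs searched here contains another. The letters CCAAT occur in 11 of the 30 windows (36.7%) and in 0 of the 7, against 38.7% of the genes tested. CACGTG occurs in 4 of the 30 (13.3%, against 10%), TATAAA in 1 (3.33%, against 7.83%) and TGACGTCA in 2 (6.67%, against 3.12%). Each of these occurs in 0 of the 7 as well. The Kaiso motif TCCTGCNA occurs in 1 of the 30, that of Zbtb37, one of the 7 (3.33%, against 4.7%). These matches are descriptions of the windows and do not show binding.

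Zbtb33, or Kaiso, reads methylated CpG and an unmethylated motif and binds p120 catenin, and it is the X-linked member of the 35. Its level was 8.67, 8.86 and 8.68 in XY 1, XY 2 and XY 3, against 9.89, 10.55 and 10.02 in XX 1, XX 2 and XX 3. All XY arrays lay below all XX arrays by more than the spread within either group. It fell by 1.42 ± 0.20 (log2 ± SE, adjusted p = 0.00922), with a mean deposited intensity of 370 ± 45.2 in XY against 1318 ± 507 in XX (SD, n = 3 each). Its other kept probe set fell by 1.38 ± 0.24 when each of the kept probe sets was fitted on its own (adjusted p = 0.0181). Of 375 X-linked genes tested, 25.3% fell, their median change was -0.28, and 23 fell further than Zbtb33. The call of Zbtb33 held without any 1 array.

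The other readers of methylated DNA did not pass. Zbtb38 (also called CIBZ) read 5.71, 5.89 and 5.98 in XY 1, XY 2 and XY 3, against 5.41, 5.65 and 5.29 in XX 1, XX 2 and XX 3. Its change of 0.41 ± 0.16 had an adjusted p of 0.131, and its groups did not overlap. Zbtb4 read 6.12, 4.74 and 6.38 in the XY arrays against 6.12, 5.27 and 4.61 in the XX arrays, with overlapping groups and the widest interval of the 35, from -0.80 to 1.63. Whether the change of Zbtb33 differs from those of Zbtb38 and Zbtb4 was not tested.

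Among the members known from blood cells, Zbtb46, a factor of classical dendritic cells that is also made in endothelium, was lower. Its level was 8.51, 8.57 and 8.06 in XY 1, XY 2 and XY 3, against 9.64, 9.49 and 9.54 in XX 1, XX 2 and XX 3. The XX arrays lay close together (SD 0.076), and every XY array lay below them. It fell by 1.17 ± 0.18 (adjusted p = 0.011) and its call held without any 1 array. Its other kept probe sets had changes of -1.34 ± 0.40 (adjusted p = 0.0694) and -0.42 ± 0.18 (adjusted p = 0.149).

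Zbtb7a, also called LRF, which represses globin genes in red cell precursors, read 5.30, 5.33 and 5.41 in the XY arrays, against 5.86, 6.24 and 5.97 in the XX arrays. The XY arrays nearly coincided and all lay below XX. It fell by 0.68 ± 0.16 (adjusted p = 0.0337), from a dim probe set with deposited intensities of 33.2, 33.2 and 33.5 in XY against 41.3, 70 and 57.8 in XX. Its other kept probe set had a change of 0.18 ± 0.20, of opposite sign. The call ended without XY 1 (adjusted p = 0.101), XY 2 (0.104), XY 3 (0.0895), XX 2 (0.0912) or XX 3 (0.0795). It also ended on the deposited scale (0.198) and when its probe sets were averaged (-0.25, 0.299).

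The remaining blood cell genes did not pass. Zbtb7b, or ThPOK, which commits T cells to the CD4 lineage, read 6.98, 7.38 and 6.91 in XY against 7.22, 7.34 and 7.85 in XX, a change of -0.38 ± 0.22 (adjusted p = 0.277). Its other kept probe set had 0.11. Zbtb32, a repressor known from lymphocytes, read 8.03, 8.22 and 7.93 in XY against 7.75, 7.65 and 7.48 in XX, so that every XY array was above XX. Its change was 0.43 ± 0.16 (adjusted p = 0.107), but -0.20 by its other kept probe set. Zbtb16, or PLZF, which maintains spermatogonial stem cells and innate T cells, had -0.24 ± 0.32 with overlapping groups. Zbtb1, needed for lymphoid development, had -0.50 ± 0.18 (adjusted p = 0.109).

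Markers of other cells were read on the same arrays. Immune markers summed to 501 to 610 in the XY arrays and 346 to 382 in the XX arrays (quantile-normalized intensity, 9 of 10 markers on the array). Of them Csf1r and Cd68 rose, while Ptprc, the pan-leukocyte marker, and Itgam lay below the median on all 6 arrays. Csf1r, the brightest, averaged 236 in XY and 87 in XX. Theca and stroma markers summed to 456 to 562 in XY and 253 to 317 in XX. The brightest of them, Dcn, averaged 234 in XY and 65.2 in XX. Of the 8, 4 lay below the median on all arrays (Cyp17a1, Col1a1, Col3a1 and Pdgfra), and 0 of the 4 tested passed limma's adjusted p. Granulosa and cumulus markers summed to 1533 to 1675 in XY and 1314 to 1613 in XX, overlapping ranges, and Inha alone of 10 tested rose. Endothelial markers summed to 237 to 338 in XY and 184 to 346 in XX, also overlapping, with Cdh5 below the median on all arrays. All 14 oocyte markers were above the median on every array, with sums of 90312 to 95825 in XY and 101616 to 107650 in XX, and 2 of them, Bmp15 and Mos, fell. The part of other cells in the Zbtb values was not tested.

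**Figure D2:**
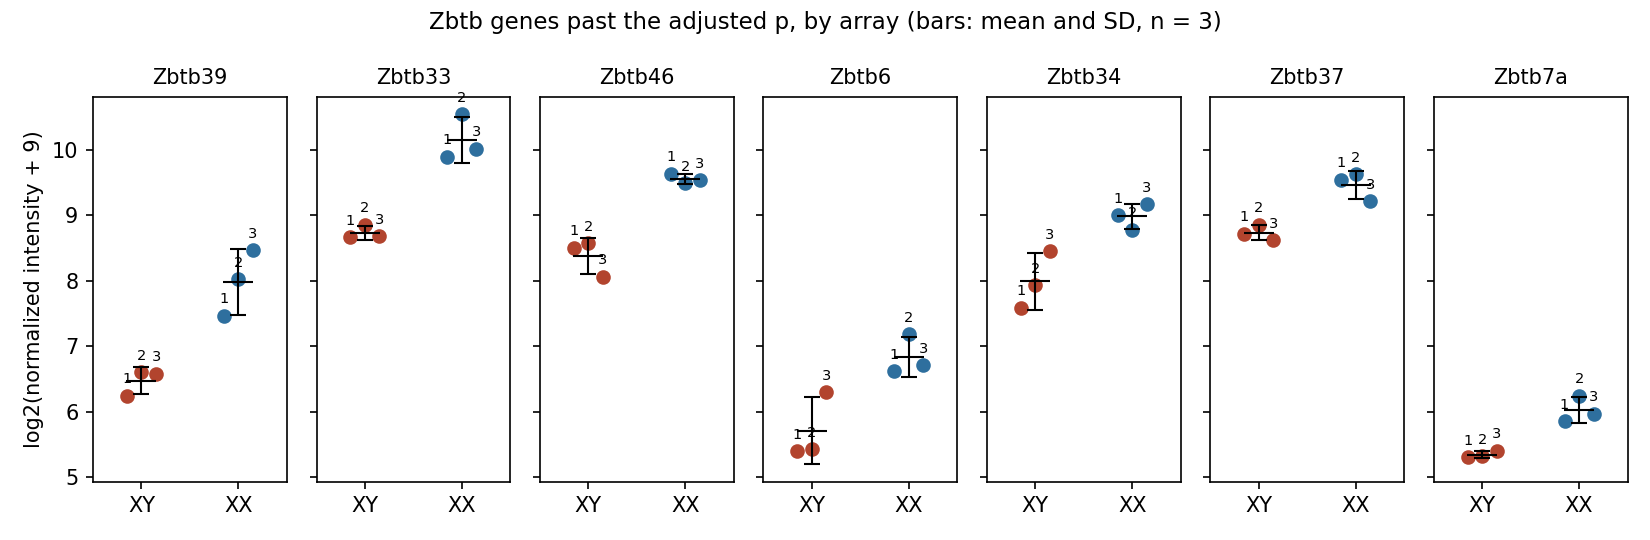
Levels of the 7 Zbtb genes past the adjusted p on each array, as log2(normalized intensity + 9), with replicate numbers, XY in red at the left and XX in blue at the right, and the mean and SD of 3 arrays. In each panel every XY array lies below every XX array.

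Zbtb39 on chromosome 10, a little-studied member, read 6.25, 6.61 and 6.58 in XY 1, XY 2 and XY 3, against 7.47, 8.02 and 8.47 in XX 1, XX 2 and XX 3. The XY arrays lay close together and XX 1 was the lowest of the XX arrays. It fell by 1.51 ± 0.27 (adjusted p = 0.016), 2.84-fold higher in XX on this scale. Its deposited intensities were 73.5, 80.5 and 81.7 in XY against 137, 288 and 468 in XX. The call ended without XY 1 (adjusted p = 0.0532) or XX 2 (0.0566).

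Zbtb6 on chromosome 2 read 5.40, 5.43 and 6.30 in XY, against 6.62, 7.18 and 6.71 in XX. XY 3 stood above the other XY arrays and below all XX arrays. It fell by 1.13 ± 0.29 (adjusted p = 0.0441). The call ended without XY 1 (adjusted p = 0.115), XY 2 (0.127), XX 2 (0.125) or XX 3 (0.0996), and with trimmed mean scaling (0.0908). Zbtb26, the neighbouring gene on chromosome 2, read 5.48, 5.26 and 4.46 in XY against 5.99, 5.95 and 5.74 in XX, a change of -0.83 ± 0.27 that did not pass (adjusted p = 0.0852).

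Zbtb34, also on chromosome 2, read 7.59, 7.93 and 8.46 in XY against 9.00, 8.78 and 9.17 in XX. It fell by 0.99 ± 0.24 (adjusted p = 0.0399), and its other kept probe set had -0.48 ± 0.28 (adjusted p = 0.279). The groups were apart, with XY 3 nearest to XX. The call ended without XY 1 (adjusted p = 0.0993), XY 2 (0.113), XX 1 (0.0522), XX 2 (0.0765) or XX 3 (0.114). Its neighbour Zbtb43 had -0.32 ± 0.27 with overlapping groups.

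Zbtb37 on chromosome 1 read 8.72, 8.86 and 8.62 in XY against 9.55, 9.63 and 9.22 in XX. Every XY array lay below every XX array. It fell by 0.73 ± 0.17 (adjusted p = 0.0336), and its other kept probe set had -0.36 ± 0.19. The call ended without XY 1 (adjusted p = 0.0942), XY 2 (0.0797), XY 3 (0.109) or XX 2 (0.0959).

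Several further members had XY arrays below all XX arrays without passing. Zbtb12 on chromosome 17 read 5.27, 4.18 and 4.63 in XY against 5.62, 5.40 and 5.68 in XX, with -0.87 ± 0.28 (adjusted p = 0.0771). Without XY 1, the highest XY array for this gene, its change was -1.15. In that fit it met the filter through the XX arrays alone, where it is high. Its limma adjusted p of 0.0402 there is therefore not taken as support. Zbtb8b on chromosome 4 read 9.83, 9.72 and 10.14 in XY against 10.21, 10.65 and 11.15 in XX, with -0.77 ± 0.26 (adjusted p = 0.0891). It passed without XX 1 (-0.998, adjusted p = 0.0232), with median scaling (-1.28, 0.024), with trended variance (0.0387) and with array weights (-0.89, 0.0268). Its neighbour Zbtb8a was among the genes too dim to be tested.

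Of the general repressors, Zbtb18 (RP58), which acts in brain development, read 9.69, 9.61 and 9.51 in XY against 10.00, 9.94 and 9.70 in XX. Every XY array lay below XX by a small margin, and the change of -0.28 ± 0.15 did not pass (adjusted p = 0.25). Zbtb10 read 8.99, 9.50 and 9.13 in XY against 9.58, 9.64 and 9.88 in XX, with -0.49 ± 0.19 (adjusted p = 0.119). Its other kept probe sets had 0.32 and -0.09. Zbtb14, also called ZF5, read 7.90, 7.01 and 7.89 in XY against 8.05, 8.42 and 8.30 in XX, with -0.66 ± 0.27 (adjusted p = 0.142). Its 3 other kept probe sets had -1.33, -0.20 and 0.16. Without XX 1 the probe set at -1.33 became the brightest and stood for the gene, which then passed (-1.73, adjusted p = 0.00595).

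Among the 35 genes tested, higher values were smaller, and none passed limma's adjusted p. Zbtb17, or Miz1, the zinc finger partner of Myc, read 6.83, 7.31 and 7.47 in XY against 6.06, 6.67 and 7.17 in XX, with 0.57 ± 0.31, overlapping groups and an adjusted p of 0.238. Zbtb45 read 8.72, 8.72 and 8.91 in XY against 8.58, 7.90 and 8.49 in XX, and its change of 0.46 ± 0.21 had an adjusted p of 0.18. Zbtb2 read 9.90, 9.87 and 10.05 in XY against 9.73, 9.60 and 9.55 in XX, with 0.32 ± 0.14 (adjusted p = 0.174). Its change was -0.03 on the deposited scale, and median scaling gave -0.19.

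Zbtb25 and Zbtb1 neighbour each other on chromosome 12 and had changes of opposite sign. Zbtb25 read 7.42, 7.27 and 7.46 in XY against 6.66, 7.16 and 7.01 in XX, with 0.44 ± 0.18 (adjusted p = 0.139). Zbtb1 read 5.69, 6.001 and 5.94 in XY against 6.22, 6.24 and 6.66 in XX. The arrays of both genes did not overlap between the groups, in opposite orders.

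The remaining 11 members tested had changes of -0.51 to 0.40 and adjusted p of 0.101 to 0.935. Those nearest to 0 included Zbtb24 (-0.03 ± 0.23), mutated in a human immunodeficiency with faulty centromere methylation, with a 95% interval of -0.58 to 0.51. Zbtb48, also called TZAP, which binds telomeres, had -0.03 ± 0.16 (interval -0.41 to 0.36) and Zbtb44 had -0.05 ± 0.15 (interval -0.40 to 0.30). Zbtb20, a liver repressor of the Afp gene, had 0.40 ± 0.18 (adjusted p = 0.177), and its 5 kept probe sets had changes of 0.14 to 0.42. The noncoding Zbtb11os1 had 0.12 ± 0.16 and its neighbour Zbtb11 had -0.06 ± 0.20. Zbtb3, Zbtb8a, Zbtb41, Zbtb42 and Zbtb49 were not tested because no probe set reached the median on 3 arrays. Their 9 probe sets had deposited intensities of 1.40 to 67.6. A probe set of Zbtb41 read 53.2, 67.6 and 10.5 in XY against 3.14, 1.52 and 1.43 in XX. Its change was 2.001, with a limma adjusted p of 0.085 when all probe sets with 1 symbol were fitted without the filter.

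In 13 genes more than 1 probe set was kept. In 8 of them all kept probe sets had the same sign, and in Zbtb7a, Zbtb7b, Zbtb10, Zbtb14 and Zbtb32 they did not. Fitted each on its own, 9 of the 56 kept Zbtb probe sets fell, against 5.92% of all kept probe sets with 1 symbol. The probe set added to those above was one of Zbtb21, at -1.03 ± 0.26 (adjusted p = 0.0437), whereas the brighter one that stood for Zbtb21 had -0.40 ± 0.14 (adjusted p = 0.101 in the fit over genes).

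**Figure D3:**
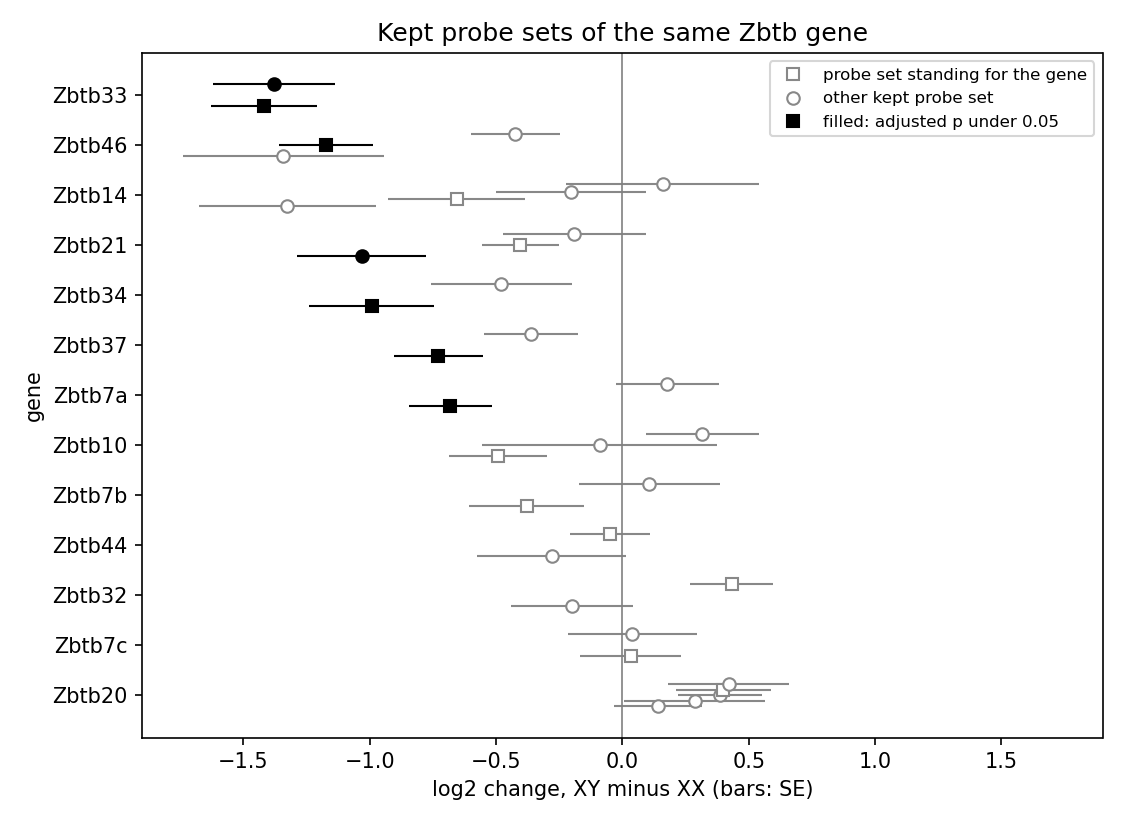
Log2 change (XY minus XX, with SE) of each kept probe set of the 13 Zbtb genes with more than 1, where squares stand for the gene in the main counts and filled symbols passed the adjusted p over all kept probe sets. Both probe sets of Zbtb33 passed, at -1.42 and -1.38, and those of 5 genes lie on both sides of 0.

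Partners of the BTB domain and relatives without a Zbtb symbol did not move one way. Of 7 such relatives tested, Bcl6, a repressor that acts in germinal centre B cells, rose by 1.24 ± 0.18 (adjusted p = 0.0087). Gzf1 fell by 0.81 ± 0.17 (adjusted p = 0.0275). Bcl6 read 8.43, 8.37 and 8.34 in XY against 7.26, 6.83 and 7.32 in XX. Among 10 corepressor genes tested, Gps2 rose by 0.89 ± 0.19 (adjusted p = 0.0284) and X-linked Bcorl1 fell by 0.99 ± 0.24 (adjusted p = 0.0389), while Ctbp1 had 0.67 (adjusted p = 0.0575) and Ctbp2 -0.54 (0.0621). Of the Cul3 ligase genes, 5 were tested and 0 passed limma's adjusted threshold, while Spopl alone was under 0.05 before adjustment (0.81 ± 0.29). Cul3 itself had -0.04 ± 0.16. The medians of the 3 lists were -0.24, 0.10 and 0.05, against 0.07 for all genes.

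The arrays matched their labels at Y-linked genes, with deposited intensities of Uba1y of 3565 to 4631 in XY against 5.91 to 26.8 in XX. Arrays correlated at 0.980 to 0.982 within XY, 0.967 to 0.983 within XX and 0.940 to 0.962 between them. The 5' control of Actb, a measure of how complete the labelled RNA is, read 54.7 to 62.7 in the XY arrays and 45.8, 184 and 188 in XX 1, XX 2 and XX 3. With each gene centred on its own mean, the median of the 35 Zbtb genes less that of all genes was -0.18, -0.17 and -0.09 in XY 1, XY 2 and XY 3, against 0.17, 0.16 and 0.27 in XX 1, XX 2 and XX 3. For Gapdh, the log2 ratio of the 3' control to the 5' control was 4.22 ± 0.18 in XY and 3.59 ± 0.59 in XX (SD, n = 3 each, exact two-sided permutation p = 0.2). The 3' control over the 5' control of Actb, as a log2 ratio, was 5.57 ± 0.36 in XY and 4.46 ± 0.93 in XX (SD, n = 3 each, exact two-sided permutation p = 0.2, where 0.1 is the smallest that 3 against 3 allow). With this ratio as a covariate, 0 Zbtb genes passed limma's adjusted p (8 lower and 2 higher at an unadjusted p under 0.05, where 9.17% of all genes were lower and 12.8% higher), while the 7 changes stayed below 0. Zbtb33 had -1.12 (adjusted p = 0.0696), Zbtb46 -1.23 (0.0686) and Zbtb39 -0.99 (0.0941), and over all genes 0.619% fell and 1.28% rose in that fit.

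**Figure D4:**
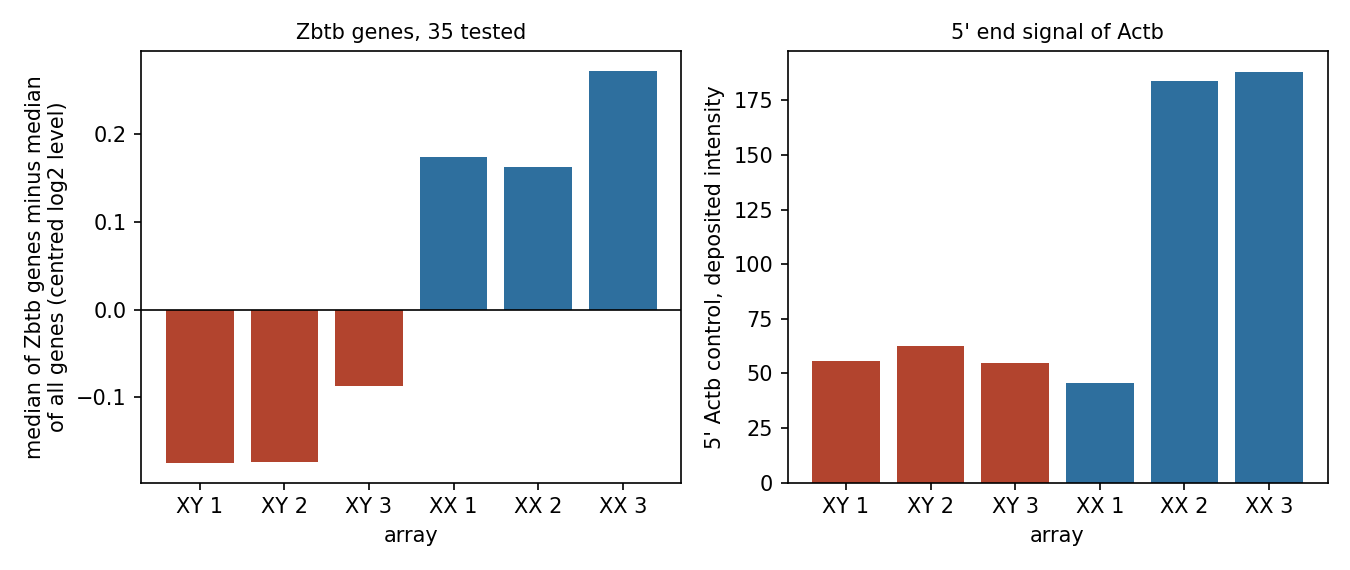
Left, the median centred log2 level of the 35 Zbtb genes minus that of all genes on each array; right, the deposited intensity of the 5' Actb control, with XY arrays in red and XX arrays in blue. The Zbtb measure is below 0 in the 3 XY arrays and above 0 in the 3 XX arrays. The Actb control is 54.7 to 62.7 in the XY arrays and 45.8, 184 and 188 in XX 1, XX 2 and XX 3.

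The number of Zbtb genes that fell depended on the arrays used. It was 3 without XY 1, 3 without XY 2 and 5 without XY 3, where 2.1%, 1.58% and 1.86% of all genes fell in the same order. The 3 without XY 1 include Zbtb12, which met the filter there through the XX arrays alone. The number was 8 without XX 1, 2 without XX 2 and 4 without XX 3, where 10.6%, 1.71% and 1.91% of all genes fell. The calls over all genes thus varied with the arrays used as well. By limma's adjusted p, 0 Zbtb genes rose in each of these fits. Without XY 1, XY 2 and XY 3, 2.8%, 2.34% and 2.56% of all genes rose. Without XX 1, XX 2 and XX 3, 16.8%, 3.43% and 3.56% of all genes rose. The changes of the 7 genes stayed below 0 in each alternative in which they were tested. Zbtb33 ran from -1.895 to -1.12, Zbtb46 from -1.63 to -0.98, Zbtb39 from -1.80 to -0.99 and Zbtb7a from -0.81 to -0.25. Of the alternatives that tested them, Zbtb33 and Zbtb46 each passed in 19 of 20, Zbtb39 in 17 of 20, Zbtb37 in 12 of 20, Zbtb34 in 10 of 20, Zbtb6 in 10 of 19 and Zbtb7a in 5 of 19. Among these alternatives is the same fit with the threshold loosened to 0.1, which each of the 7 passes by design.

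**Figure D5:**
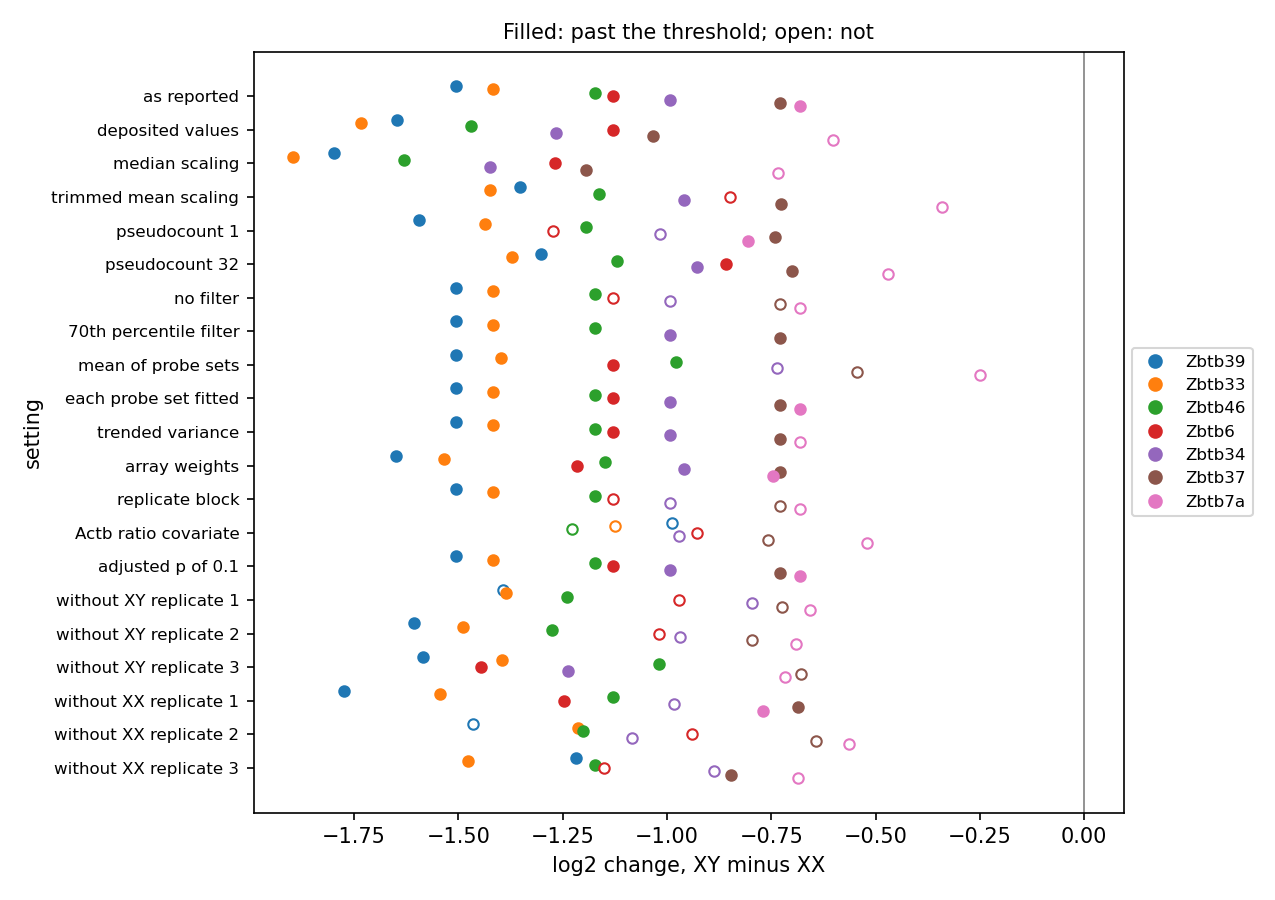
Log2 change (XY minus XX) of the 7 Zbtb genes as reported and under 20 alternative settings, filled where the gene passed the threshold and open where it did not. All points lie below 0, and with the Actb ratio as a covariate none is filled.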

How the data were processed

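RNA of XY and XX GV oocytes was measured on 6 Affymetrix 3' arrays. The authors deposited 1 linear intensity per probe set and array, made with MAS5 per the submitters' processing notes; for the version and scaling target of MAS5, nothing was given in the sources used here. Of 45037 probe sets other than 64 controls, the platform annotation gave 34945 a single symbol; 34741 of these matched RefSeq's GRCm38.p6 gene table by gene ID.

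In R 4.3.3 with limma 3.58.1, deposited intensities were quantile-normalized, because array medians ran from 24.5 to 31.4, and log2(value + 9) was taken, 9 being their 25th percentile. Probe sets reaching the median of an array in 3 or more of the 6 were kept (22997). Of each gene the brightest was fitted (lmFit, eBayes), and p-values were adjusted after Benjamini and Hochberg over 12442 genes. The steps were tested on simulated data. The number of arrays limits the precision.

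The members and the lists of partners and markers were chosen with earlier results of these data known. Values on every array were to be given for members past the adjusted p, the 6 largest falls and rises, the 5 brightest, the X-linked member and those whose probe sets disagree in sign; others given in full were added after their values were seen. Alternatives changed the scaling, the pseudocount, the filter, how probe sets stand for a gene, the variance trend, the weighting of arrays, the replicate block, the Actb ratio as covariate, the threshold and the arrays used (each left out in turn).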

Additional observations from a re-analysis of the deposited data

How the results depend on the processing

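In the main setting 7 Zbtb genes fell, 0 rose and the median change was -0.32. The count of genes that fell was 11 with median scaling, 3 with no filter, 4 with the mean of probe sets and 0 after adding the Actb ratio to the fit. Over all genes 13%, 1.91%, 6.2% and 0.619% fell in these fits, against 5.34% in the main setting. Leaving out each array in turn gave 2 to 8, with 1.58% to 10.6% over all genes. The count of genes that rose was 1 with trimmed mean scaling, where 11.4% of all genes rose. The median was -0.49 on the deposited scale, -0.63 with median scaling and -0.21 with trimmed mean scaling, where all genes had -0.12, -0.27 and 0.18. It was -0.24 with the mean of probe sets, -0.385 with the Actb ratio, and -0.40 to -0.32 with each array left out. Zbtb2 turned to -0.027 on the deposited scale and -0.19 with median scaling, and Zbtb4 to -0.57 with the Actb ratio; the cause was not tested. Arrays that share a replicate number did not deviate together (correlations of -0.10, 0.00 and -0.04), and with the replicate block 3 genes fell (Zbtb33, Zbtb39 and Zbtb46), and 2.05% of all genes. Zbtb33 and Zbtb46 passed in each alternative other than the Actb ratio, and Zbtb39 in all but that and those without XY 1 or XX 2. Dim probe sets such as those of Zbtb7a, Zbtb12 and Zbtb6 limit what these arrays can show.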
